A study of Mus musculus with 12 samples.

Results

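The 9 genes described here encode enzymes that make or interconvert asparagine, alanine, proline, the branched-chain amino acids, aspartate and glutamate, together with the mitochondrial enzyme that forms phosphoenolpyruvate. They were chosen by symbol, *Asns*, *Gpt2*, *Pck2*, *Bcat1*, *Pycr1*, *Aldh18a1*, *Got1*, *Got2* and *Glud1*, and each matched 1 of the 55536 Ensembl features in the deposited counts. RNA-seq was performed on cultured splenic B cells from 3 control animals and 3 animals lacking Pdap1. For every animal, a 48 h culture with LPS plus IL-4, which induces switching to IgG1, and another one with LPS plus BAFF and TGFβ, which induces switching to IgG2b, were sequenced, so that 12 libraries fall into 4 groups of 3. Deficient mice, labelled PDAP1 KO, carry floxed Pdap1 alleles (Pdap1F/F), and both genotypes, all on the C57BL/6 strain, carry a heterozygous Cre that is expressed in B cells, to which the deletion is limited. Per the methods of the study, LPS was used at 5 µg/ml, 10 ng/ml was the dose of BAFF, 5 ng/ml that of IL-4 and 2 ng/ml that of TGFβ. B cells were isolated with beads against CD43 and grown in medium with added l-glutamine and sodium pyruvate. The study used mice of both sexes matched by age, and the labels give no age for single mice. The labels also name CH12, a mouse B lymphoma line, as the cell line of every sample, whereas the series and its methods describe primary splenocytes.

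Most non-essential amino acids are built from glutamate nitrogen and from carbon of the citric acid cycle or glycolysis. Aminotransferases pass the nitrogen between glutamate and a keto acid, asparagine synthetase adds amide nitrogen from glutamine to aspartate, and proline is made from glutamate by reduction and ring closure. Activated lymphocytes grow fast and draw heavily on glutamine, and many cells transcribe part of this group under the control of Atf4, a transcription factor of the amino acid and endoplasmic reticulum stress response.

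Libraries held 9386667 to 15869143 counts under LPS-IL-4. Under LPS-BAFF-TGFβ they held 4579793 to 69500640, control mouse 1 being by far the deepest. Pdap1 was at 91.4 to 97.8 CPM (counts scaled to the size of the library) in LPS-IL-4 controls against 23.3 to 29.9 CPM in deficient cultures, and at 80.3 to 199 CPM against 23.0 to 26.4 CPM under LPS-BAFF-TGFβ, without overlap in either (log2 fold change -1.82, SE 0.11, adjusted p = 3.52e-05, and -2.33, SE 0.36, adjusted p = 0.0929, edgeR with Benjamini-Hochberg). Reads from exons outside the deleted part can still be counted. The 6 B cell markers used were present in all libraries. They summed to 2882 to 2924 CPM in LPS-IL-4 controls and 2981 to 3293 CPM in deficient cultures, and to 2151 to 2315 CPM and 2108 to 2365 CPM under LPS-BAFF-TGFβ, where the genotypes overlapped. T cell, natural killer cell and erythroid markers summed to at most 36.8, 4.07 and 23.7 CPM. The 7 myeloid markers summed to between 5.04 and 24.2 CPM in the 6 control libraries, to 6.77 and 11.8 CPM in deficient mouse 1, to 32.0 and 75.1 CPM in deficient mouse 3, and to 301 and 531 CPM in deficient mouse 2, under LPS-IL-4 and LPS-BAFF-TGFβ, respectively. *Lyz2* and *Adgre1* led this sum in the deficient groups, while *C1qa* was at 0 in both. Because of these libraries, the genotype effects of the members, their isoenzymes and the called related genes are given also without deficient mouse 2. The mitochondrial share of counts was 1.99% to 2.34% in LPS-IL-4 controls and 2.50% to 3.26% in deficient mice, without overlap, and 2.93% to 3.30% and 2.85% to 4.34% under LPS-BAFF-TGFβ, so that it was also higher in controls under LPS-BAFF-TGFβ than in those under LPS-IL-4. Its part in the results below was not tested.

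Of the 9 enzyme genes, 6 were higher in Pdap1-deficient than in control B cells in both stimulations, and 3 were not called. The 6 were *Asns*, *Gpt2*, *Pck2*, *Bcat1*, *Pycr1* and *Aldh18a1*. Under LPS-IL-4, 2.79% of the 15074 genes tested were called higher and 4.92% in either direction (edgeR quasi-likelihood F test, Benjamini-Hochberg adjusted p under 0.05), and under LPS-BAFF-TGFβ, 0.455% of 14079 were called higher and 0.462% in either direction. The median log2 fold change of the 9 genes was 1.01 under LPS-IL-4 and 1.49 under LPS-BAFF-TGFβ, against 0.02 and 0.01 over all genes tested. Values in deficient and control libraries did not overlap for any of the 6 in either stimulation, which held for 31.7% and 18.6% of all genes tested. In bulk RNA, a change in the RNA per cell and a change in the share of cells that express a gene cannot be told apart.

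**Figure D1:**
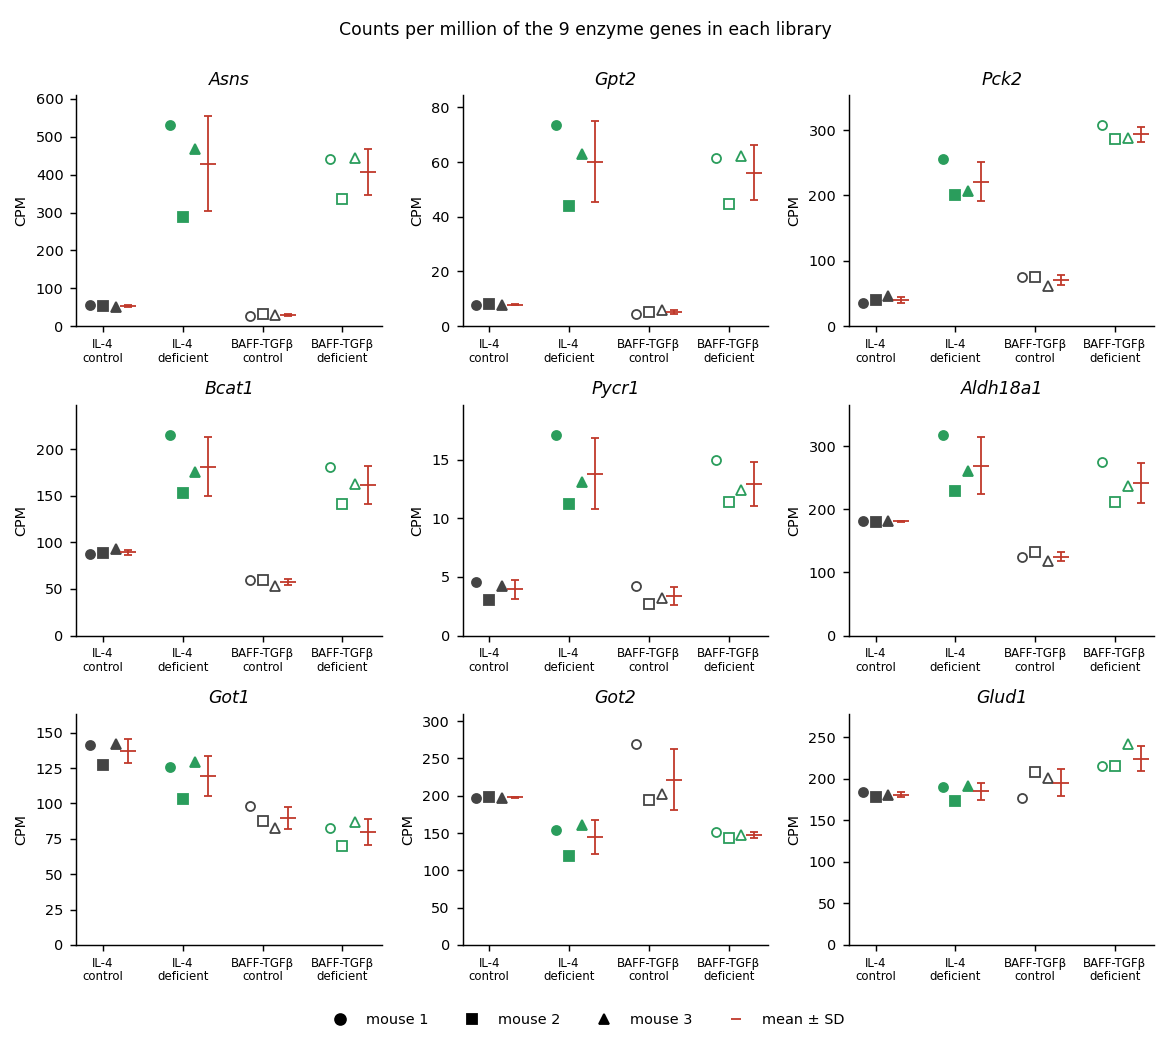
Level of each of the 9 enzyme genes (y axis, CPM, linear from 0) in the 12 libraries, by stimulation and genotype (x axis). Grey symbols are control and green symbols Pdap1-deficient mice, filled under LPS-IL-4 and open under LPS-BAFF-TGFβ, the shape gives the mouse, and red marks show mean ± SD (n = 3). The green symbols lie above the grey ones for *Asns*, *Gpt2*, *Pck2*, *Bcat1*, *Pycr1* and *Aldh18a1*, and the square, mouse 2, is the lowest green symbol in each of these 6 panels.

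*Asns* (ENSMUSG00000029752; GRCm38 chr6:7675169-7693254, minus strand) encodes asparagine synthetase, the enzyme that makes asparagine. Under LPS-IL-4, control mice 1 to 3 had 56.2, 53.2 and 50.4 CPM and deficient mice 1 to 3 had 530, 288 and 468 CPM. Under LPS-BAFF-TGFβ, the controls had 26.7, 31.0 and 28.4 CPM and the deficient mice 441, 337 and 444 CPM. All 6 deficient libraries were thus several fold above all 6 controls, with mouse 2 the lowest of them in both stimulations. The increase was 8.02-fold (log2 interval 2.48 to 3.53, SE 0.23, adjusted p = 0.000683, edgeR with Benjamini-Hochberg) under LPS-IL-4 and 14.3-fold (log2 3.84, interval 3.49 to 4.18, SE 0.15, adjusted p = 8.64e-06) under LPS-BAFF-TGFβ, where *Asns* had the smallest p of all genes tested.

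*Gpt2* (ENSMUSG00000031700; chr8:85492576-85527560, plus strand) is the mitochondrial alanine aminotransferase, which converts pyruvate and glutamate into alanine and 2-oxoglutarate. Its level was 7.82, 7.91 and 7.89 CPM in LPS-IL-4 controls and 73.4, 44.1 and 62.8 CPM in deficient mice. Under LPS-BAFF-TGFβ it was 4.51, 5.11 and 5.84 CPM in controls and 61.6, 44.6 and 62.2 CPM in deficient mice. The controls of a stimulation were close together, and the spread was wider among deficient mice, again with mouse 2 at the bottom. The increase was 7.58-fold (log2 2.92, SE 0.19, adjusted p = 6.1e-05, edgeR with Benjamini-Hochberg) under LPS-IL-4 and 11.1-fold (log2 3.48, SE 0.19, adjusted p = 5.82e-05) under LPS-BAFF-TGFβ. The other alanine aminotransferase gene, *Gpt*, which encodes the cytosolic enzyme, was at 2.10 to 2.61 CPM in LPS-IL-4 controls and 1.48 to 2.01 CPM in deficient mice, and at 2.56 to 3.46 CPM and 1.76 to 1.86 CPM under LPS-BAFF-TGFβ. It was thus lower in deficient cells without overlap but was not called (log2 -0.36, adjusted p = 0.453, and -0.73, 95% interval -1.40 to -0.06, adjusted p = 0.444, edgeR with Benjamini-Hochberg).

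*Pck2* (ENSMUSG00000040618; chr14:55540266-55551242, plus strand) encodes mitochondrial phosphoenolpyruvate carboxykinase, which turns oxaloacetate into phosphoenolpyruvate. Under LPS-IL-4 it was at 35.5, 39.5 and 45.6 CPM in controls and at 256, 201 and 207 CPM in deficient mice. Under LPS-BAFF-TGFβ it was at 74.6, 74.7 and 61.2 CPM in controls and at 307, 287 and 288 CPM in deficient mice, so that the genotypes were far apart and the deficient mice close to each other. The fold change was 5.48 (log2 2.45, SE 0.14, adjusted p = 1.76e-05, edgeR with Benjamini-Hochberg) under LPS-IL-4 and 4.21 (log2 2.07, SE 0.12, adjusted p = 7.22e-05) under LPS-BAFF-TGFβ. *Pck1*, the gene of the cytosolic form, had between 0 and 32 counts per library and at most 0.609 CPM, and it was at 0 in the 3 LPS-IL-4 controls and in deficient mouse 3, where in the controls 3 counts would be 0.247 to 0.270 CPM (a limit set by counting error only). It was too low to be tested.

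*Bcat1* (ENSMUSG00000030268; chr6:144993835-145076184, minus strand) is the cytosolic branched-chain aminotransferase, which transfers nitrogen between glutamate and leucine, isoleucine or valine. Its level in LPS-IL-4 controls was 87.5, 88.5 and 92.7 CPM, and in deficient mice 215, 153 and 176 CPM. In LPS-BAFF-TGFβ controls it was 59.6, 59.6 and 53.6 CPM, and in deficient mice 181, 141 and 162 CPM. The lowest deficient library of a stimulation was well above its highest control. The increase was 2.01-fold (log2 1.01, SE 0.13, adjusted p = 0.00363, edgeR with Benjamini-Hochberg) under LPS-IL-4 and 2.82-fold (log2 1.49, SE 0.12, adjusted p = 0.000836) under LPS-BAFF-TGFβ. Without LPS-IL-4 control mouse 2 the adjusted p of the former was 0.051. *Bcat2*, the mitochondrial form, was at 21.2 to 31.5 CPM in the 12 libraries and was not called, with a log2 fold change of -0.16 (95% interval -0.46 to 0.15) and of -0.04 (-0.40 to 0.31). The antisense gene *Gm26666* shares 337 exon bases with *Bcat1* and held 277 counts in all libraries together, against 17913 for *Bcat1*.

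Proline synthesis was represented by *Aldh18a1* (ENSMUSG00000025007; chr19:40550257-40588463, minus strand), whose product, P5C synthase, carries out the initial steps from glutamate, and by *Pycr1* (ENSMUSG00000025140; chr11:120635712-120643769, minus strand), whose product reduces P5C to proline in mitochondria. *Pycr1* was the least expressed member in CPM, at 4.53, 3.06 and 4.21 CPM in LPS-IL-4 controls and at 17.1, 11.2 and 13.1 CPM in deficient mice. Under LPS-BAFF-TGFβ it was at 4.23, 2.68 and 3.17 CPM in controls and at 15.0, 11.4 and 12.4 CPM in deficient mice. The genotypes were clearly separated although the spread within groups was large for so low a level. The increase of *Pycr1* was 3.48-fold (log2 1.80, SE 0.23, adjusted p = 0.00289, edgeR with Benjamini-Hochberg) and 3.77-fold (log2 1.91, SE 0.24, adjusted p = 0.0101). *Aldh18a1* was much more abundant, at 181, 180 and 181 CPM in LPS-IL-4 controls and at 318, 229 and 261 CPM in deficient mice, and at 125, 132 and 118 CPM and 275, 212 and 237 CPM under LPS-BAFF-TGFβ. Its change was the smallest of the 6, 1.48-fold (log2 0.57, SE 0.13, adjusted p = 0.0368, edgeR with Benjamini-Hochberg) and 1.95-fold (log2 0.96, SE 0.12, adjusted p = 0.0105).

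The calls of both proline genes were lost in some fits with a library left out, except that of *Pycr1* under LPS-IL-4, which was made in 13 of 13 alternative fits. For *Aldh18a1* under LPS-IL-4, 4 of 13 alternative fits gave no call, those without control mouse 1, 2 or 3 or deficient mouse 3, with adjusted p between 0.109 and 0.177 (edgeR with Benjamini-Hochberg) and a log2 fold change of at least 0.55. Under LPS-BAFF-TGFβ, neither gene was called without control mouse 3 or deficient mouse 1 or 3, where the adjusted p was 0.076 to 0.097 for *Pycr1* and 0.08 to 0.106 for *Aldh18a1*. Both genes were higher in deficient cells in each of these fits. The calls over all genes also fell in these fits, from 741 to 91, 69, 79 and 163 under LPS-IL-4 and from 65 to 19, 28 and 24 under LPS-BAFF-TGFβ. *Pycr3*, the cytosolic P5C reductase, was not called and was at 28.6, 30.4 and 33.7 CPM in LPS-IL-4 controls and at 25.4, 18.2 and 17.98 CPM in deficient mice, lower without overlap (log2 -0.59, SE 0.16, adjusted p = 0.0562 by edgeR and 0.0213 by DESeq2, both with Benjamini-Hochberg). Under LPS-BAFF-TGFβ the genotypes overlapped (log2 -0.13, 95% interval -0.56 to 0.30, adjusted p = 0.812 by edgeR with Benjamini-Hochberg). Of the 3 isoenzymes tested, edgeR called 0 in either stimulation, DESeq2 called 1 under LPS-IL-4 and 0 under LPS-BAFF-TGFβ, and 1 in each had an unadjusted p under 0.05.

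The 3 members that were not called by genotype are the aspartate aminotransferases and glutamate dehydrogenase. *Got1* (ENSMUSG00000025190; chr19:43499752-43524605, minus strand), the cytosolic aspartate aminotransferase, was at 142, 127 and 142 CPM in LPS-IL-4 controls and at 126, 103 and 129 CPM in deficient mice, and at 97.9, 87.6 and 82.8 CPM and 82.9, 69.6 and 87.1 CPM under LPS-BAFF-TGFβ. The genotypes overlapped in both stimulations, with a log2 fold change of -0.21 (95% interval -0.47 to 0.05) and -0.16 (-0.44 to 0.13). *Glud1* (ENSMUSG00000021794; chr14:34310727-34345265, plus strand), which converts glutamate and 2-oxoglutarate into each other with release or uptake of ammonia, was at 184, 178 and 180 CPM against 191, 173 and 191 CPM under LPS-IL-4 (log2 0.02, 95% interval -0.19 to 0.24). Under LPS-BAFF-TGFβ it was at 177, 208 and 202 CPM in controls and at 215, 216 and 242 CPM in deficient mice, which did not overlap but were not called (log2 0.21, -0.05 to 0.47).

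*Got2* (ENSMUSG00000031672; chr8:95864134-95888547, minus strand), the mitochondrial aspartate aminotransferase, lay in the opposite direction from the 6 raised genes. It was at 197, 198 and 197 CPM in LPS-IL-4 controls and at 155, 119 and 160 CPM in deficient mice. Under LPS-BAFF-TGFβ it was at 269, 194 and 202 CPM in controls and at 152, 144 and 148 CPM in deficient mice, so that every deficient library was below every control. The log2 fold change was -0.46 (SE 0.13, adjusted p = 0.0632 by edgeR and 0.0164 by DESeq2, both with Benjamini-Hochberg) under LPS-IL-4 and -0.58 (SE 0.14, adjusted p = 0.183 by edgeR and 0.0359 by DESeq2) under LPS-BAFF-TGFβ. With a library left out, the latter ranged from -0.66 to -0.42, and the highest control value, 269 CPM, came from the deepest library. By edgeR, 0 of the 9 members were called lower in either stimulation, against 2.12% and 0.0071% of all genes tested, and DESeq2 called *Got2* alone, against 9.37% of genes called by it in either direction and 5.09% lower under LPS-IL-4, and 1.1% and 0.285% under LPS-BAFF-TGFβ. *Got2* was the 1 member lower at an unadjusted p under 0.05 in each. *Got2* was called under LPS-IL-4 in 5 of 13 alternative fits, among them that without deficient mouse 2 (log2 -0.32, adjusted p = 0.00726, edgeR with Benjamini-Hochberg), and under LPS-BAFF-TGFβ in 2 of 13. The pseudogene Got2-ps1 held 334 counts in all, against 35400 for *Got2*.

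**Figure D2:**
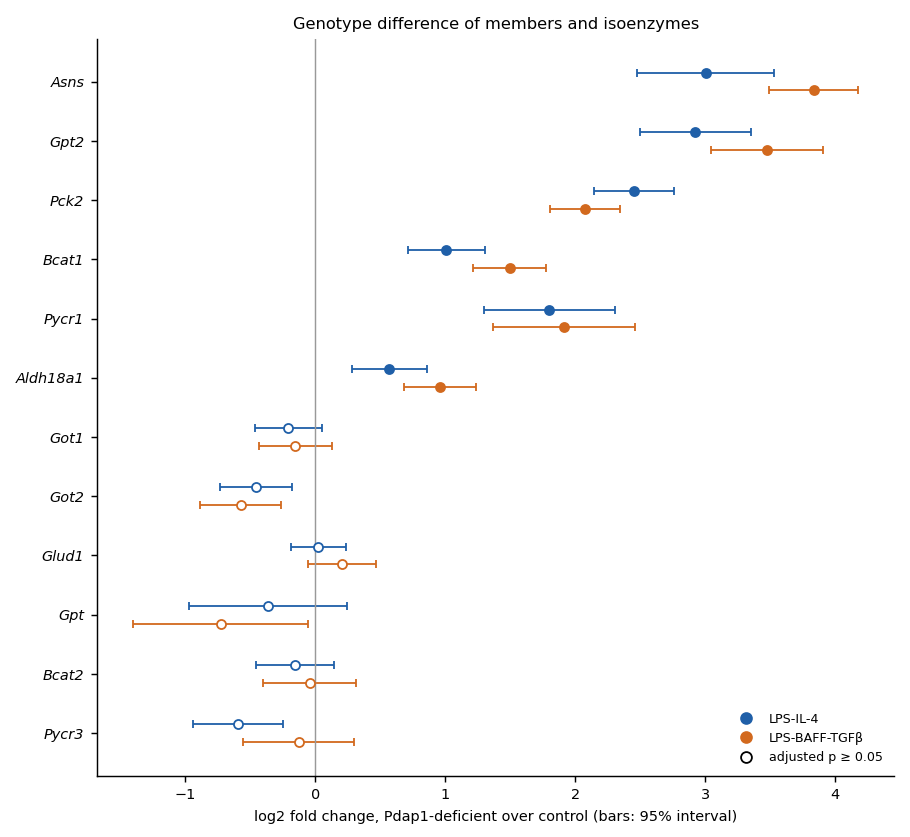
Log2 fold change of Pdap1-deficient over control cells (x axis) for the 9 members and for the 3 isoenzymes *Gpt*, *Bcat2* and *Pycr3* (rows), under LPS-IL-4 in blue and LPS-BAFF-TGFβ in orange. Points are edgeR estimates from 3 mice a group, bars are 95% intervals, and open points have an adjusted p of at least 0.05. The 6 upper genes are filled and right of 0 in both stimulations, and all isoenzymes, *Got1*, *Got2* and *Glud1* are open.

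Deficient mouse 2, whose libraries held the most myeloid RNA, had the lowest value among deficient mice for 6 of the 6 raised genes in both stimulations. Deficient mouse 1, with the least, had the highest value for 6 of 6 under LPS-IL-4 and for 4 of 6 under LPS-BAFF-TGFβ. The summed B cell markers of mouse 2 were the highest of the deficient mice, at 3293 and 2365 CPM. Without mouse 2, the 6 genes were called in both stimulations, with a log2 fold change of 3.23 and 3.93 for *Asns*, 3.12 and 3.59 for *Gpt2*, 2.53 and 2.07 for *Pck2*, 1.13 and 1.56 for *Bcat1*, 1.95 and 1.97 for *Pycr1* and 0.69 and 1.02 for *Aldh18a1*. The increases were thus as large without this mouse. *Got1* gave -0.10 and -0.09 and *Glud1* 0.08 and 0.21 without it, neither called, and *Got2* gave -0.58 under LPS-BAFF-TGFβ (adjusted p = 0.63, edgeR with Benjamini-Hochberg). Of the isoenzymes, *Pycr3* was then called under LPS-IL-4 (-0.49, adjusted p = 0.0485), while *Gpt* (-0.42 and -0.77) and *Bcat2* (-0.17 and -0.14) were not. Without the deepest library, control mouse 1 under LPS-BAFF-TGFβ, the 6 genes were likewise called, with 3.78 for *Asns*. The 5 plasmablast markers summed to 622 to 674 CPM in LPS-IL-4 controls and to 747 to 892 CPM in deficient mice, with 1 of 5 called higher, and their part in the LPS-IL-4 values of the enzyme genes was not tested.

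Ratios between isoenzymes of the same reaction do not depend on scaling between libraries. The ratio of *Gpt2* to *Gpt* transcripts, per length, was 1.56 to 1.93 in LPS-IL-4 controls and 11.6 to 25.2 in deficient mice, and 0.679 to 1.18 and 11.9 to 17.9 under LPS-BAFF-TGFβ. *Bcat1* to *Bcat2* was 1.16 to 1.29 in LPS-IL-4 controls and 2.21 to 3.30 in deficient mice, and 0.912 to 1.18 and 2.34 to 3.45 under LPS-BAFF-TGFβ. In controls these ratios thus lay between 0.679 and 1.93, with *Gpt2* and *Bcat1* transcripts already the more abundant in all LPS-IL-4 controls. In deficient cells the ratios lay between 2.21 and 25.2. They concern transcripts, and the amounts of the enzymes were not measured. The change of the *Gpt2* to *Gpt* ratio includes the lower values of *Gpt* in deficient cells, which were not called. *Gpt* held only 19, 32 and 19 counts in LPS-IL-4 deficient mice and 11, 9 and 15 under LPS-BAFF-TGFβ, so this ratio is imprecise. *Got1* to *Got2* was 1.22 to 1.36 against 1.53 to 1.64, and 0.691 to 0.860 against 0.919 to 1.12. None of the 6 comparisons overlapped, and each gave p = 0.1 (two-sided exact permutation test, adjusted p = 0.1 over 6 tests), the smallest value that 3 against 3 mice allow. Values of single genes did not overlap for 31.7% and 18.6% of all genes tested, and the share over other ratios was not taken. The ratios with *Gpt2* and *Bcat1* restate the increases of these genes and are not separate results.

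**Figure D3:**
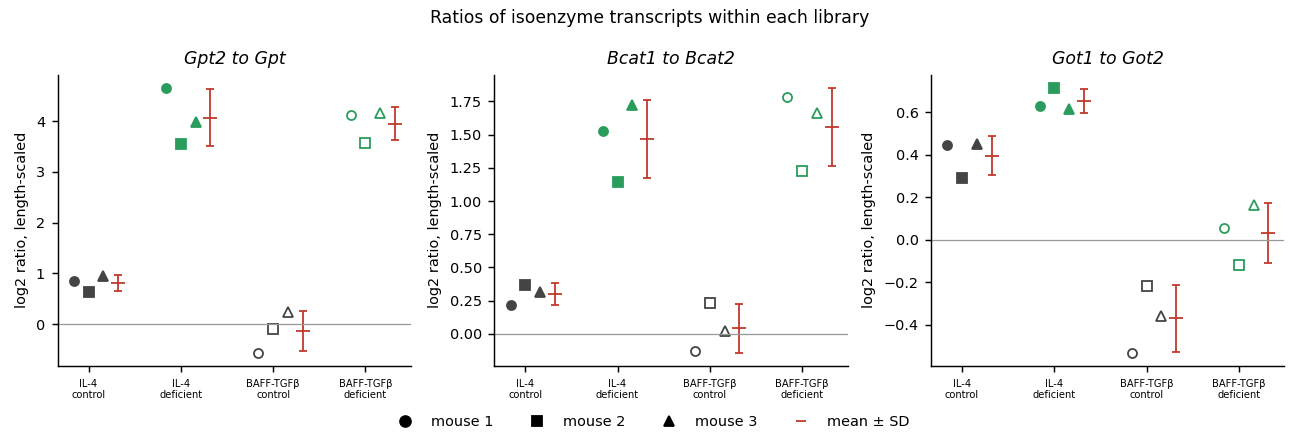
Log2 ratio of length-scaled counts of paired isoenzymes within each library (y axis, a separate scale per panel) by stimulation and genotype (x axis). Symbols are single mice, filled under LPS-IL-4 and open under LPS-BAFF-TGFβ, grey for control and green for Pdap1-deficient, red marks show mean ± SD (n = 3), and the grey line marks equal levels. Green symbols are above grey ones of the same stimulation in all 3 panels.

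Levels per length of all annotated exons together (RPKM) change the order of the 9 genes between genotypes. The order between genes depends on this length, which was 9322 bases for *Bcat1* and 7806 for *Pck2* against 2539 for *Got1*, and which can exceed that of the transcripts present. In LPS-IL-4 controls the order was *Got1* (53.9 ± 3.27 RPKM, SD, n = 3), *Aldh18a1* (44.4 ± 0.126), *Glud1* (43.0 ± 0.744), *Got2* (41.0 ± 0.0758), *Asns* (19.5 ± 1.06), *Bcat1* (9.61 ± 0.297), *Pck2* (5.15 ± 0.655), *Gpt2* (1.395 ± 0.00817) and *Pycr1* (0.999 ± 0.197), and no neighbours overlapped. In deficient cells *Asns* led, at 157 ± 46.0 RPKM under LPS-IL-4 and 149 ± 22.3 under LPS-BAFF-TGFβ, followed by *Aldh18a1* at 66.2 ± 11.1 and 59.3 ± 7.71. *Asns* was therefore in the fifth place in controls of either stimulation (10.5 ± 0.795 RPKM under LPS-BAFF-TGFβ) and in the top place in deficient cells. *Gpt2* and *Pycr1* were at the bottom in all 4 groups, and in LPS-BAFF-TGFβ controls their values overlapped (0.914 ± 0.118 and 0.853 ± 0.201). Other overlapping neighbours were *Got1* and *Glud1*, and *Got2* and *Pck2*, in LPS-IL-4 deficient cells, *Glud1* and *Got2* in LPS-BAFF-TGFβ controls, and *Aldh18a1* and *Glud1*, and *Got1* and *Got2*, in LPS-BAFF-TGFβ deficient cells.

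Promoter sequence is shown because 6 members were raised together. RefSeq windows (GRCm38.p6) from 250 bases before to 50 bases after the start site were searched on both strands for TGATGNAA, the core of the C/EBP-ATF response element, which Atf4 and its partners bind. The motif was found in 3.97% of 32851 windows. It was in the windows of 3 of the 6 raised genes, *Asns*, *Pck2* and *Pycr1*, and in that of *Got1*, which was not called by genotype. It was not found in the windows of *Gpt2*, *Bcat1* (2 windows), *Aldh18a1*, *Got2* or *Glud1*. Sequences are written 5′ to 3′ on the strand of the gene with the match in capitals, and positions count back from the RefSeq start site, the base before it being -1. The *Asns* match reads along the gene at -23 to -16 (chr6:7693214-7693243 shown, within a GENCODE exon that starts 45 bases farther upstream), and that of *Pycr1* at -103 to -96 (chr11:120643788-120643907). The matches of *Pck2* at -103 to -96 (chr14:55540107-55540226) and of *Got1* at -102 to -95 (chr19:43524644-43524763) are on the opposite strand. The 120 bases before the start of *Gpt2* (chr8:85492456-85492575), the gene with the pattern most like that of *Asns*, are given for comparison and hold no match.
Asns: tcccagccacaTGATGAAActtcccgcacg
Pck2: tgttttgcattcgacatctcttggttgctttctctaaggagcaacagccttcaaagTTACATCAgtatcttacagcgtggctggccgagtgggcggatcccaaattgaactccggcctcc
Pycr1: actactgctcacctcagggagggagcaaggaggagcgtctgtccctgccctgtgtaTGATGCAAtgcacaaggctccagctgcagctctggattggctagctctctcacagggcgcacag
Got1: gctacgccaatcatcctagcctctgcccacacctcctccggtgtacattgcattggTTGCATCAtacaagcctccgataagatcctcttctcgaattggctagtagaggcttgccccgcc
Gpt2: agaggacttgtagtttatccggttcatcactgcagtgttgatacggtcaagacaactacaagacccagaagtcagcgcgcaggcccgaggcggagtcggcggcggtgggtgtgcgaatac

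A match is a description of these letters and not a binding site, and a window without a match says nothing of elements elsewhere in the gene.

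In control cells, 5 of the 9 genes were lower and 1 was higher under LPS-BAFF-TGFβ than under LPS-IL-4, against 9.33% and 9.99% of the 14882 genes tested (19.3% in either direction, edgeR). *Asns* fell by 1.07, 0.78 and 0.83 on the log2 scale in control mice 1, 2 and 3, and by 0.89 in the fit (SE 0.11, adjusted p = 0.000695, edgeR with Benjamini-Hochberg). *Bcat1* fell by 0.63 (SE 0.09, adjusted p = 0.00144), *Got1* by 0.61 (SE 0.09, adjusted p = 0.00284) and *Aldh18a1* by 0.53 (SE 0.08, adjusted p = 0.00277), each in 3 of 3 mice. *Gpt2* fell by 0.63 (SE 0.18), with an adjusted p of 0.0416 that was 0.108 with the mouse as a block, and it was called in 3 of 13 alternative fits. *Pck2* was the exception and rose by 0.81 (SE 0.13, adjusted p = 0.00301), by 1.07, 0.92 and 0.42 in the 3 mice. These fits leave out the pairing, and with the mouse as a block the calls over all genes went from 2874 to 1989. *Asns*, *Bcat1*, *Got1*, *Aldh18a1* and *Pck2* were still called then, with adjusted p of 0.00518, 0.0116, 0.0129, 0.0191 and 0.0147 (edgeR with Benjamini-Hochberg). *Pycr1*, *Got2* and *Glud1* were not called, with log2 differences of -0.19 (95% interval -0.78 to 0.41), 0.17 (-0.12 to 0.46) and 0.11 (-0.10 to 0.33).

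In Pdap1-deficient cells, 1 of the 9 genes was higher and 1 was lower under LPS-BAFF-TGFβ, against 5.57% and 5.89% of the 14617 genes tested (11.5% in either direction). *Pck2* rose by 0.41 (SE 0.12, adjusted p = 0.0494, edgeR with Benjamini-Hochberg) and *Got1* fell by 0.57 (SE 0.13, adjusted p = 0.0175), each in 3 of 3 mice. *Asns* changed by -0.27, 0.23 and -0.08 on the log2 scale in deficient mice 1, 2 and 3 and gave -0.07 in the fit (95% interval -0.59 to 0.45), and *Gpt2* gave -0.09 (-0.54 to 0.36). *Bcat1*, at -0.16 (-0.48 to 0.16), and *Aldh18a1*, at -0.16 (-0.48 to 0.16), were lower in 3 of 3 mice but were not called. The cultures of a mouse form a pair, and with the mouse as a block the calls over all genes went from 1675 to 3854. Then *Pck2* (0.42, adjusted p = 0.000182), *Got1* (-0.58, adjusted p = 1.8e-05) and also *Glud1* (0.28, adjusted p = 0.00512) were called. Without mouse 2 in both cultures, *Pck2* (0.36, adjusted p = 0.0371) and *Got1* (-0.58, adjusted p = 0.00116) were called. Leaving out a single library ended the call of *Pck2* for 5 of 6 libraries, with adjusted p up to 0.232, and that of *Got1* likewise for 5 of 6, with adjusted p up to 0.1.

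**Figure D4:**
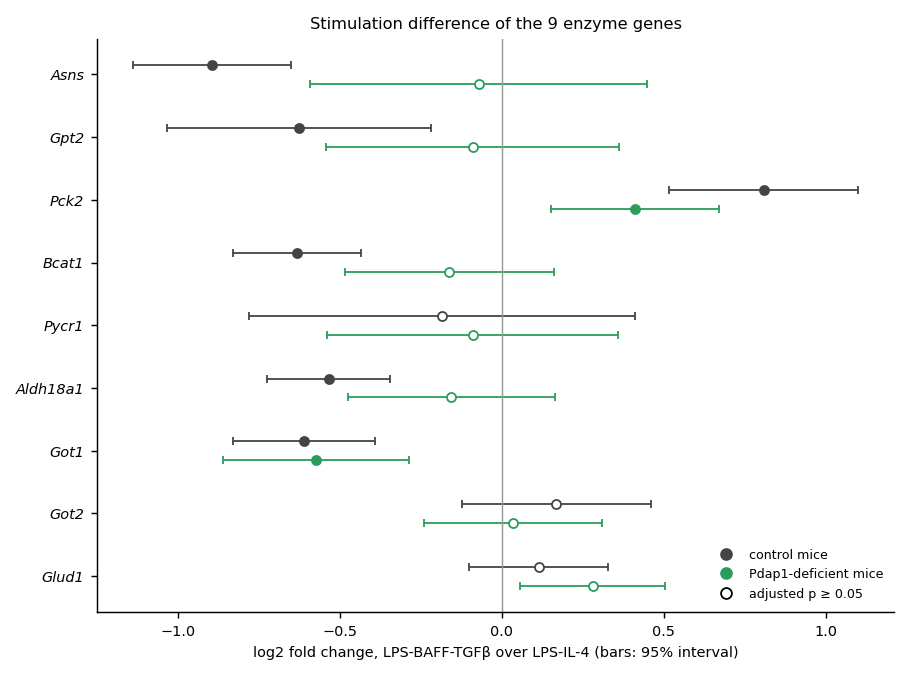
Log2 fold change of LPS-BAFF-TGFβ over LPS-IL-4 cultures (x axis) for the 9 members (rows) in control (grey) and Pdap1-deficient (green) mice. Points are edgeR estimates from 3 mice a group, bars are 95% intervals, and open points have an adjusted p of at least 0.05. *Asns*, *Gpt2*, *Bcat1* and *Aldh18a1* are filled and left of 0 in controls and open near 0 in deficient mice, whereas *Got1* is filled and left of 0 in both.

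Whether the genotype effect differed between stimulations was tested directly over the 12 libraries. The effect was larger under LPS-BAFF-TGFβ by 0.82 on the log2 scale for *Asns* (95% interval 0.26 to 1.39), 0.54 for *Gpt2* (-0.03 to 1.12), 0.47 for *Bcat1* (0.08 to 0.86) and 0.38 for *Aldh18a1* (0.00 to 0.76). It was smaller there for *Pck2*, with a difference of -0.40 (-0.77 to -0.02). None of the 9 members passed the test, with an adjusted p of at least 0.983 for each (edgeR with Benjamini-Hochberg), and 0.0% of the 15794 genes tested did. Of the members, 4 had an unadjusted p under 0.05, against 755 of all genes, and DESeq2 called 0 members and 6 genes (0.019%). The stimulation effect seen for *Asns* in controls and not in deficient cells is therefore not shown to differ between genotypes. With the mouse as a block the adjusted p of *Asns* was 0.265. The stimulations also differed in plasmablast markers, which summed to 449 to 527 CPM in LPS-BAFF-TGFβ controls against 622 to 674 CPM under LPS-IL-4, with 4 of 5 called lower and 1 higher, and their part in the stimulation effects was not tested.

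Related enzymes were read from 6 lists. Over all genes tested, edgeR called 2.79% higher and 2.12% lower under LPS-IL-4, and 0.455% and 0.0071% under LPS-BAFF-TGFβ. An unadjusted p under 0.05 by edgeR, in either direction, was found for 3582 of 15074 and 1486 of 14079 genes. Among other aminotransferases, 6 of 12 were expressed enough to be tested. *Psat1*, the aminotransferase of serine synthesis, was higher in deficient cells in both stimulations (log2 0.98, SE 0.16, adjusted p = 0.0113, and 1.19, SE 0.14, adjusted p = 0.00518, edgeR with Benjamini-Hochberg), and *Kyat3*, a kynurenine aminotransferase, was lower under LPS-IL-4 (-0.67, SE 0.17, adjusted p = 0.047). The median of the list was -0.21 and 0.04. In the asparagine, aspartate and urea cycle list, edgeR and DESeq2 called 0 of 6 in either stimulation, with 1 and 2 at an unadjusted p under 0.05, and *Asrgl1*, which hydrolyses asparagine, was at -0.20 and -0.16. In the proline and ornithine list, edgeR called 0 of 7 in either stimulation, DESeq2 1 and 0, with 2 and 1 at an unadjusted p under 0.05.

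Of 20 enzymes of branched-chain amino acid breakdown, all of which were tested, *Acadsb*, the short and branched chain acyl-CoA dehydrogenase, was higher under LPS-IL-4 (log2 0.76, SE 0.14, adjusted p = 0.0172, edgeR with Benjamini-Hochberg). Under LPS-BAFF-TGFβ 0 of 20 were called by edgeR or DESeq2, with 1 at an unadjusted p under 0.05. The medians were -0.02 and 0.07, near those of all genes tested. Of 10 glutamine genes tested under LPS-IL-4, *Cad*, which starts pyrimidine synthesis with glutamine nitrogen, was lower (-0.58, SE 0.11, adjusted p = 0.0163), as was *Pfas*, a glutamine-using enzyme of purine synthesis (-0.50, SE 0.10, adjusted p = 0.027). DESeq2 called 3 of the 10 lower, adding *Ctps*, CTP synthetase (-0.52), against 5.09% of all genes. At an unadjusted p under 0.05, edgeR gave 5 lower and 1 higher, against 3582 of 15074 genes in either direction. The median was -0.36, against 0.02 over all genes tested. Under LPS-BAFF-TGFβ *Cad* and *Pfas* gave -0.24 and -0.14, and 0 of 9 were called by either tool or had an unadjusted p under 0.05. *Glul*, glutamine synthetase, was at -0.15 and 0.02 and was not called. In the list of the malate-aspartate shuttle, pyruvate and phosphoenolpyruvate, 1 of 15 was called, *Me1*, cytosolic malic enzyme, under LPS-IL-4 (2.48, SE 0.31, adjusted p = 0.00275), from a mean of 0.715 to 4.06 CPM. The list otherwise leaned lower there, with a median of -0.26 against 0.02 over all genes tested. At an unadjusted p under 0.05 by edgeR, 7 of 15 were lower, against 3582 of 15074 genes in either direction. DESeq2 called 2 lower, against 5.09% of all genes, the glycolytic enolase *Eno1* (-0.49) and *Pdk1*, a pyruvate dehydrogenase kinase (-0.44). Under LPS-BAFF-TGFβ *Me1* was at 2.02 without a call, at 0.757 and 2.66 CPM, and 0 of 15 were called by either tool, with 2 at an unadjusted p under 0.05. Without deficient mouse 2 under LPS-IL-4, *Psat1* (1.154), *Kyat3* (-0.49), *Acadsb* (0.73), *Cad* (-0.53), *Pfas* (-0.44) and *Me1* (2.32) were all called, and *Psat1* (1.27) also was under LPS-BAFF-TGFβ.

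**Figure D5:**
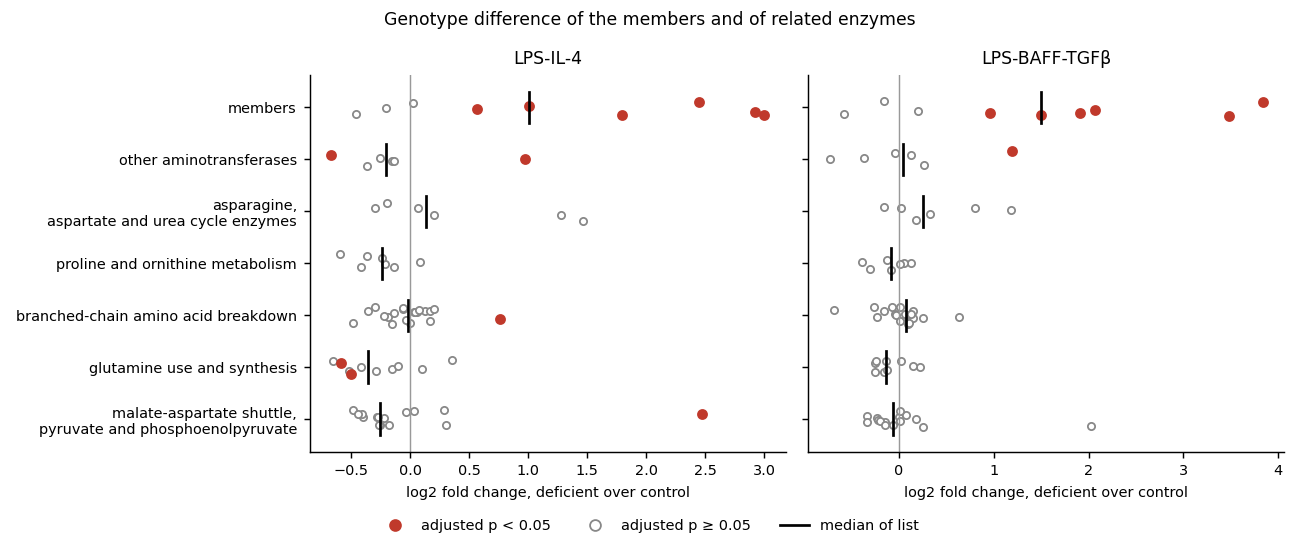
Log2 fold change of Pdap1-deficient over control cells (x axis) for each tested gene of the 9 members and of 6 lists of related enzymes (rows), under LPS-IL-4 on the left and LPS-BAFF-TGFβ on the right. Red points passed an adjusted p of 0.05 (edgeR), open points did not, black bars are list medians, and vertical scatter within a row has no meaning. The median bar of the members is at 1.01 and 1.49, while those of the other lists lie between -0.36 and 0.26.

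Several related genes differed between stimulations in the same direction in control and deficient cells. *Glul* was higher under LPS-BAFF-TGFβ (log2 0.63, SE 0.13, adjusted p = 0.0107 in controls, and 0.78, SE 0.13, adjusted p = 0.00331 in deficient cells, edgeR with Benjamini-Hochberg), and so was *Asrgl1* (0.47 and 0.49). *Auh*, an enzyme of leucine breakdown, was lower (-1.59 and -1.54), as were *Ppm1k*, the phosphatase that activates the branched-chain keto acid dehydrogenase (-0.58 and -0.63), and *Slc25a22*, a mitochondrial glutamate carrier (-0.78 and -0.84), all called in both genotypes. Of the 20 genes of branched-chain breakdown, 3 were called higher and 2 lower in controls, against 9.99% and 9.33% of all genes tested. In deficient cells 2 were called higher and 2 lower, against 5.57% and 5.89%. The list medians were 0.24 and 0.26, against 0.03 and -0.003 over all genes tested, and the higher genes are not named here. In the proline and ornithine list 4 of 7 were lower in controls, *P4hb*, *Oat*, *Pepd* and *Pycr3*, and 1 of 7, *P4hb*, in deficient cells, against 9.33% and 5.89% of all genes tested. *Pycr3* was not called with the mouse as a block (adjusted p = 0.0707).

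The genes with the most similar pattern were found by the root mean square difference of centred log2 CPM over the 12 libraries, among 15793 other genes. *Asns* and *Gpt2* were each other's nearest gene, at a difference of 0.18, next to a standard deviation of 1.81 and 1.67 across the libraries. They were followed for *Asns* by *Slc6a9*, a glycine transporter (0.35), and *Trib3*, a pseudokinase induced by stress (0.39), and for *Gpt2* by *Aldh1l2*, the mitochondrial 10-formyltetrahydrofolate dehydrogenase (0.39), and *Trib3* (0.47). The nearest genes of *Bcat1* were Atf4 itself (0.12), the amino acid transporter *Slc7a5* (0.15) and *Psph* of serine synthesis (0.18). Those of *Aldh18a1* were *Shmt2* (0.09), which makes glycine in mitochondria, and the aminoacyl-tRNA synthetases *Aars* (0.10) and *Yars* (0.11), and those of *Pycr1* were *Slc1a4* (0.27), *Sesn2* (0.28) and *Eif4ebp1* (0.32). *Pck2* was nearest to *Jdp2* (0.27), *Gm19238* (0.36) and *Rab39b* (0.38). For the genes not called by genotype, the nearest were *Aggf1*, *Fkbp5* and *Ppa1* for *Got1*, and *Pa2g4*, *Eef1d* and *Dynll1* for *Got2*. Those of *Glud1* were *Angel2*, *Clasp2* and *Pex13*. The standard deviation was 0.35 for *Got1*, 0.31 for *Got2* and 0.15 for *Glud1*, against 0.46 (*Aldh18a1*) to 1.81 (*Asns*) among the raised genes. Because the difference was not scaled by this deviation, near genes must change by a similar amount. That raised and uncalled genes had different neighbours is therefore built into the measure and is not a separate result.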

How the data were processed

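RNA-seq counts of 12 libraries, 3 mice per genotype and 2 stimulations, were analysed. The authors deposited raw counts per Ensembl gene (Trim Galore 0.6.1, STAR 2.6, HTSeq 0.9.1, GRCm38, from the submitters' processing notes). The strand setting and annotation release are not given in the sources used here, so reads of overlapping antisense genes may not be separated. A deposited table of normalized counts was not used. Symbols and lengths came from GENCODE M21, which named 55536 of 55536 features.

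Groups were compared with the quasi-likelihood F test of edgeR (version 4.0.16, R version 4.3.3), run on genes kept by filterByExpr and scaled by TMM, with Benjamini-Hochberg adjustment over all genes tested and a threshold of 0.05. The study used DESeq2, here an alternative (version 1.42.0). CPM use TMM-scaled totals, RPKM add union exon length, log2 CPM used a prior count of 2, and isoenzyme ratios a pseudocount of 0.5. Other alternatives were the size factors, the filter, thinning to 4579793 counts, the pairing and each library left out. Scripts were tested on simulated data. Median biological variation was 17.2% to 20.9%, so precision of genes with many counts was limited by mice more than by depth. Counting error adds to it for genes with few counts, such as *Pycr1* and *Gpt*. No library was a copy of another.

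Same-numbered cultures came from the same mouse, per the series description, and form pairs between stimulations (correlation of deviations -0.18, 0.34 and -0.02 in control and 0.58, 0.62 and 0.29 in deficient mice). Cultures of unlike number gave -0.41 to 0.37 in control and -0.58 to 0.01 in deficient mice. In controls the pairing therefore rests on the description and is not seen in these values. Named genes are Pdap1, the members, their isoenzymes, genes called in a list (at most 3 per direction, smallest adjusted p first) and the 3 genes nearest to each member. Gene lists were written from general knowledge, and 126 of 126 symbols matched. Some items are not reported here. Members and lists were chosen with earlier results of these data known. *Glul*, *Asrgl1*, *Ctps*, *Eno1*, *Pdk1* and the values of list genes in a comparison where they were not called were added after their values were seen, as was the fit without deficient mouse 2 in both cultures.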

Additional observations from a re-analysis of the deposited data

How the results depend on the processing

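The 6 raised genes kept their direction in all 13 alternatives in both stimulations, and 4 to 6 of them were called when a library was left out. With the replicate number as a block, which joins unrelated mice of the genotypes, 6 of 6 were called in both stimulations and 641 in place of 741 genes with LPS-IL-4 and 48 in place of 65 with LPS-BAFF-TGFβ were called. Over all genes with LPS-IL-4, 1229 were called by DESeq2 (45.7% higher, against 56.8%), 1694 without the filter and 69 to 1759 with a library left out. With LPS-BAFF-TGFβ, 174 were called by DESeq2 (74.1% higher, against 98.5%), 257 without the filter, 133 with all 12 libraries in the fit and 19 to 116 with a library left out. Between stimulations, 1608 to 4858 genes in controls and 908 to 2235 in deficient mice were called with a library left out, and 3854 in the latter with the replicate block. The cause of these shifts was not tested.

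*Got2* made the count of members lower by genotype 1 in place of 0 with LPS-IL-4 under DESeq2, without the filter and after thinning, and 0 to 1 with a library left out, and with LPS-BAFF-TGFβ under DESeq2 and without the filter. In deficient mice, the members higher with LPS-BAFF-TGFβ were 0 with DESeq2 size factors and 0 without the filter, 2 with the replicate block and 0 to 1 with a library left out, and the members lower were 0 to 1. In controls, members higher were 1 to 2 with a library left out. The genotype by stimulation term gave 6 genes by DESeq2 and 1 without the filter.

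Signs turned only for uncalled values near 0. With a library left out, ranges of the log2 fold change were -0.016 to 0.084 (*Glud1*, LPS-IL-4) and -0.14 to 0.074 (*Bcat2*, LPS-BAFF-TGFβ) by genotype. In deficient mice between stimulations they were -0.29 to 0.11 (*Asns*), -0.27 to 0.080 (*Gpt2*), -0.22 to 0.10 (*Pycr1*), -0.088 to 0.11 (*Got2*), -0.14 to 0.064 (*Gpt*) and -0.17 to 0.11 (*Pycr3*). Without deficient mouse 2 in both cultures, *Got2* gave -0.069 and *Gpt* 0.034. For the genotype by stimulation term with a mouse left out they were -0.0035 to 0.22 (*Pycr1*), -0.043 to 0.087 (*Got1*) and -0.24 to 0.035 (*Got2*). After thinning, *Pycr3* gave 0.076 in deficient mice, and the term was -0.13 for *Pycr1* and -0.079 for *Got1*. With 3 mice per group, at 2.68 to 4.53 CPM in controls, depth limits *Pycr1* more than the other members.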
